A study of Homo sapiens with 21 samples.

Results

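The genes of the TGFβ ligands, their receptors and the latent TGFβ-binding proteins were followed through TGFβ treatment of HMLE cells, immortalized human mammary epithelial cells kept as a cell line. The genes were taken by symbol. They were the 3 ligand genes *TGFB1*, *TGFB2* and *TGFB3* and the 3 receptor genes *TGFBR1*, *TGFBR2* and *TGFBR3*. The 4 genes of the binding proteins, called latency genes here, were *LTBP1*, *LTBP2*, *LTBP3* and *LTBP4*. These 10 were all among the 23201 gene symbols with deposited values, and all 10 passed the filter on low values (a mean of at least 10 over all libraries), which kept 13343 genes for testing.

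A TGFβ ligand is made as a precursor whose propeptide stays wrapped around the mature growth factor and keeps it inactive. Latent TGFβ-binding proteins (LTBPs), except LTBP2, attach this small latent complex to the extracellular matrix. Integrins, proteases and thrombospondin can free the ligand. The free ligand binds the type II receptor, which phosphorylates the type I receptor, and the type I receptor phosphorylates SMAD proteins. In epithelial cells this signal is a known inducer of epithelial-mesenchymal transition (EMT), and in normal mammary epithelium it restrains growth.

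RNA was sequenced from untreated HMLE cells (d0) and from HMLE cells after 1, 4, 7, 10, 15 and 20 days of TGFβ treatment (d1 to d20). There were 3 libraries for each of 7 timepoints, 21 in total, which the study describes as biological triplicates. All wells were seeded at 1 density, the genotype was the same in all groups, and the isoform and the dose of the added TGFβ were not given in the sources used here. Untreated cells were sampled only at the start, so time in culture and treatment cannot be told apart.

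The deposited values are reads divided by a size factor per library, called normalized values here, and 1 read was worth 0.848 to 1.06 of them. The recovered reads totalled between 18847917 and 22667754 per library. Over all genes tested, the root mean square log2 difference between libraries of a timepoint was 0.214 to 0.243 outside d7, and 0.472 and 0.457 between the third d7 library and the other two. The summed value of 5 markers of basal mammary epithelium lay between 207247 and 534135 and that of 4 general epithelial markers between 15823 and 25676. The 5 leukocyte markers summed to at most 71.2, the 3 endothelial markers to at most 54.3 and the 2 adipocyte markers to at most 40.4, and *PTPRC*, *CD3E* and *CDH5* had at most 1 read in any library. Of 4 fibroblast markers, *LUM* and *DCN* also had at most 1 read and *PDGFRB* carried nearly all of a sum of at most 136. *PDGFRB* was at 30.5 ± 7.35 at d0, 128 ± 7.89 at d15 and 92.5 ± 8.52 at d20 (SD, n = 3), with log2 differences of 2.06 (limma, adjusted p = 1.94e-08) and 1.59 (adjusted p = 1.58e-06) from d0, and was lower at d1 and d10. The summed value of 8 cell-cycle genes was between 17928 and 18380 at d15 and between 32700.2 and 55798 at the other timepoints. The general epithelial sum was 24612 at d0, 22348 at d15, 16374 at d10 and 15961 at d20. The sum hides opposite changes of its markers at d15. *EPCAM* was lower than at d0 by a log2 difference of -2.43 (limma, adjusted p = 1.77e-16). *KRT18* (-0.75) and *CDH1* (-0.18) were also lower, and *KRT8* was higher (0.50). Several of the genes below turned at d15, and the part of these shifts in their values was not tested. In bulk RNA, fewer cells that express a gene and less RNA per cell cannot be told apart.

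The starts of transcription differ in sequence between the ligand genes. The 250 bases before the start are shown for the 3 ligand genes, which differed in level and direction: the abundant *TGFB1*, the climbing *TGFB2* and the falling *TGFB3*. The sequences are from RefSeq on GRCh38.p14, which is not the build named for the expression files, and read 5′ to 3′ towards the start. Capitals mark matches on either strand to any of 3 motifs. The first is GGGCGG, a motif of the factor SP1. The second is CAGACA, a motif bound by SMAD proteins. The third is TATAAA, the core of the TATA box. A match on the other strand shows as the reverse complement. The *TGFB3* window is that of the second annotated start and lies downstream of the first. The *TGFB2* window overlaps an antisense RNA, *TGFB2-AS1*, by 161 bases, and the *TGFB1* window overlaps *TMEM91* on the opposite strand by 4 bases (GENCODE v29).
*TGFB1*, chr19:41353923-41354172, minus strand: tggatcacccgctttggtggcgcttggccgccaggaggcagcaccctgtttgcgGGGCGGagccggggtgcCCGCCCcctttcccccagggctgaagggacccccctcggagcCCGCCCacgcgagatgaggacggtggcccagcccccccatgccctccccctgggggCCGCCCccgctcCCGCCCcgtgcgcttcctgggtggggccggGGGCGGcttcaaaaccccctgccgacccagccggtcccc
*TGFB2*, chr1:218345086-218345335, plus strand: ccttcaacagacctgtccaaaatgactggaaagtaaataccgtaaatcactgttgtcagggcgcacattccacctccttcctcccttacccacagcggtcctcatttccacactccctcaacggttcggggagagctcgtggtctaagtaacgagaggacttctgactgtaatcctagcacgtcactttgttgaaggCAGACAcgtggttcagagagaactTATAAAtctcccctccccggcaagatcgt
*TGFB3*, the second of 2 annotated starts, chr14:75981996-75982245, minus strand: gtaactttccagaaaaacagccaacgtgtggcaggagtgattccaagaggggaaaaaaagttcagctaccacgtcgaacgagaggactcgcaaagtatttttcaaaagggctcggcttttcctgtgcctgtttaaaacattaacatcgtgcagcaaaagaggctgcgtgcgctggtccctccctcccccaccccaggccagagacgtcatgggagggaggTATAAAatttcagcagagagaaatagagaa

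The *TGFB1* window was 76.8% G or C and held 6 SP1 matches and no TATA box. By contrast, the *TGFB2* window was 50.4% G or C and held a TATA box 29 bases before the start, a SMAD match 53 bases before it and no SP1 match. The second *TGFB3* window held a TATA box 30 bases before the start, and it was 49.2% G or C. The first *TGFB3* window, not shown, was 54.8% G or C and held no TATA box, SMAD or SP1 match. The *TGFBR3* window held 2 SP1 matches and the *LTBP2* window 3. No match printed overlapped another.

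RefSeq lists 23 windows for the 10 genes, some of them overlapping, since *TGFBR1* alone has 8 starts. The SP1 motif was in 12 of the 23, against 42.6% of 35116 windows of all genes, the SMAD motif was in 6 against 13.6%, and the TATA box was in 2 against 10.7%. The 6 windows with the SMAD motif belonged to *TGFB2*, *TGFBR1*, *LTBP1* and *LTBP4*. Neither strand of any window held the AP-1 motif TGANTCA, which 6.57% of all windows held. The E-box CAGGTG bound by the SNAI and ZEB factors was in 4 windows, those of *TGFBR1* and *LTBP3*, against 17.5% of all. The cAMP response element TGACGTCA was in 1 window of *LTBP1*, against 1.65%. A match is a run of letters and not evidence of binding.

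On most days, most of the 10 genes exceeded their untreated level, and 2 of them, *TGFB3* and *TGFBR3*, were lower on all days but d15. Each day was compared with d0 by limma on log2(value + 1), with Benjamini-Hochberg adjustment over the 13343 genes and a threshold of 0.05. Of the 60 comparisons of a gene with untreated cells, 44 were higher, 12 were lower and 4 did not pass. *TGFB1*, *TGFB2*, *TGFBR2*, *LTBP1*, *LTBP2* and *LTBP4* were each higher in all 18 treated libraries than in any untreated one. These are 6 of the 10 genes, and 14.6% of all genes tested behaved so. None of the 10 was lower in all 18 than in any untreated library, as 9.98% of all genes were.

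By day, 8 genes were higher and 2 lower at d1, when 31.3% of all genes tested were higher and 28.5% lower. The counts at d4 were again 8 and 2, against 36.9% and 35.3% of all genes, and at d7 they were 8 and 2, against 34.6% and 32.6%. At d10, 6 genes were higher and 3 lower (37.0% and 30.7% of all genes). The next counts were 7 and none at d15 (39.2% and 37.3%), and on the last day 7 were higher and 3 lower (32.5% and 30.2%). With a change of at least 2-fold in either direction also required, 6 of 10 passed at d1 and 8 at d4, then 6 at d7 and 2 at d10, and finally 5 at d15 and 7 at d20. The corresponding shares of all genes were 10.3%, 14.7%, 11.7%, 14.3%, 20.3% and 12.2%. The median log2 difference of the 10 genes was 0.48 at d1 and between 0.77 (d10) and 1.09 (d4) afterwards, and that of all genes was at most 0.03. When all libraries were given an equal total, the median of all genes moved to between -0.20 and -0.14, so that differences of that size depend on the scaling.

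**Figure D1:**
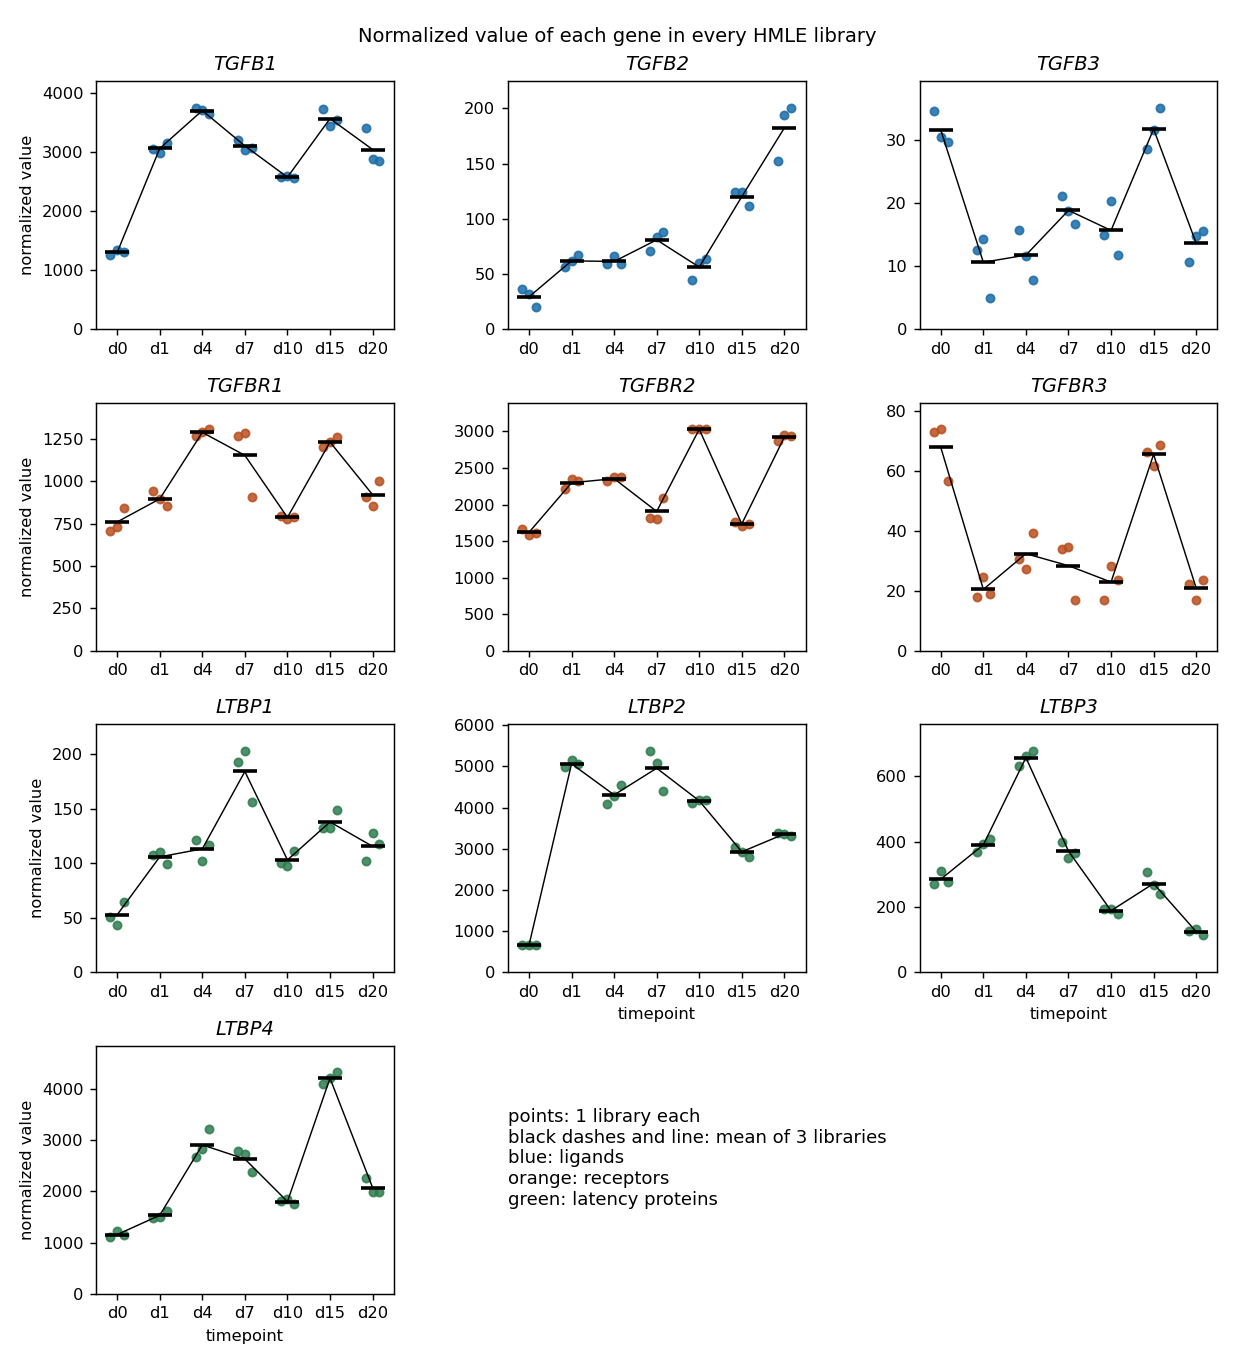
Normalized value (vertical axes, linear from 0) of each of the 10 genes by timepoint (horizontal axes, evenly spaced categories), with 1 point per library and a black dash at the mean of 3 libraries. *TGFB1* stayed above 2553 in the treated libraries, *TGFB2* was highest at d20, and *TGFB3* and *TGFBR3* were near their untreated levels only at d15.

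Among the ligands, *TGFB1*, the most widely expressed of the family, had the highest value per kilobase of transcript at every timepoint. Its value was 1257, 1336 and 1305 in the 3 untreated libraries and 3047, 2982 and 3153 at d1. At d4 it was 3752, 3706 and 3649, at d10 it was 2576, 2592 and 2553, and at d20 it was 3404, 2874 and 2849.5. The lowest treated library lay well above the highest untreated one. The untreated mean of 1299 ± 39.5 rose to 3703 ± 51.6 at d4 (SD over 3 libraries), a log2 difference of 1.51 (standard error 0.05, limma, adjusted p = 1.46e-16). The smallest difference, at d10, was 0.99 (limma, adjusted p = 2.94e-13). Within treatment the level moved up and down: d4 and d15 did not differ from each other, d7, d1 and d20 did not differ as neighbours in the order of levels, and d10 was lower than d20 by 0.24 (limma, adjusted p = 0.000751). Of the exonic bases of *TGFB1*, 6.64% overlap *HNRNPUL1* on the opposite strand, and the strand setting of the counting was not given in the sources used here.

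*TGFB2*, whose product binds the type II receptor poorly without betaglycan, was expressed at a low level and climbed late. The untreated libraries had values of 36.5, 31.4 and 19.8, from 41, 37 and 20 reads. Values were 56.5, 61.5 and 67.5 at d1, 44.8, 60.3 and 63.6 at d10, 124, 124 and 112 at d15, and 153, 194 and 201 at d20. The d20 libraries were all above the d15 libraries, and the d15 libraries were all above those of earlier days. The log2 difference from untreated cells was 1.10 at d1 (limma, adjusted p = 2.07e-05), 2.04 at d15 (adjusted p = 1.02e-09) and 2.63 at d20 (standard error 0.18, adjusted p = 3.12e-11). Between d15 and d20 *TGFB2* rose by a further 0.59 (limma, adjusted p = 0.00543). The d7, d1, d4 and d10 levels did not differ between neighbours in that order. The ends of that order did differ, with d10 minus d7 at -0.53 (limma, adjusted p = 0.0122). This did not pass with quantile normalization (-0.18, adjusted p = 0.381) or without the first d10 library (-0.37, adjusted p = 0.0884). A same-strand transcript, *TGFB2-OT1*, shares 26.6% of its exonic bases, so its reads cannot be told apart from those of *TGFB2*.

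*TGFB3* moved the other way, also from a low level. It had values of 34.7, 30.5 and 29.7 in untreated cells and 12.6, 14.4 and 4.96 at d1, and the latter rested on 5 to 14 reads. At d15 the values were 28.6, 31.7 and 35.2, inside and around the untreated range, and at d20 they were 10.6, 14.7 and 15.7. In all, 16 of the 18 treated libraries lay below every untreated one, and the d15 libraries were the source of the overlap. *TGFB3* fell by 1.60 on the log2 scale at d1 (limma, adjusted p = 0.000138), by 1.40 at d4 and by 1.17 at d20 (adjusted p = 0.00242). At d15 the difference was 0.01, with a 95% interval from -0.64 to 0.65 (limma, adjusted p = 0.987). The rise from d10 to d15 was 1.00 (limma, adjusted p = 0.00545) and from d15 to d20 it fell by 1.17 (adjusted p = 0.00177). With quantile normalization the former was 0.56 and did not pass (limma, adjusted p = 0.102). The d7 difference of -0.72 (limma, adjusted p = 0.0449) did not pass the threshold without the filter on low values (adjusted p = 0.074) or without the third d7 library (-0.64, adjusted p = 0.0879).

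The proportions of the 3 ligands shifted. To compare levels between genes, values were divided by the length of the longest protein-coding transcript in kilobases, from GENCODE v29. *TGFB1* made up 96.2% of the summed ligand value per kb at d0 and 96.4% at d20, with 98.8% at d4. The share of *TGFB2* went from 1.19% at d0 to 3.16% at d20, and that of *TGFB3* from 2.57% to 0.475%. By value per kb, *TGFB3* was thus above *TGFB2* at d0 and below it at d20. Before division by length the 2 were close at d0, with *TGFB3*/*TGFB2* ratios from 0.951 to 1.50 in the 3 libraries. Their order at d0 therefore depends on the lengths used.

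The signalling receptor genes *TGFBR1* and *TGFBR2* were higher on most days, with differences under 1 on the log2 scale, and the coreceptor gene *TGFBR3* was lower. *TGFBR2*, the ligand-binding type II receptor, had values of 1663, 1579 and 1613 in untreated cells. Its values were 2214, 2354 and 2324 at d1, 3029, 3031 and 3029 at d10, 1759, 1706 and 1739 at d15, and 2871, 2953 and 2944 at d20. All treated libraries were above the untreated ones, but those of d15 only just. The log2 difference was 0.90 at d10 (standard error 0.04, limma, adjusted p = 1.22e-13) and 0.85 at d20 (adjusted p = 3.43e-13). At d15 it was 0.10 (limma, adjusted p = 0.0464), which became -0.059 (adjusted p = 0.266) with libraries rescaled to the same total and 0.078 (adjusted p = 0.119) in edgeR's test on the recovered reads. The d10 libraries had a standard deviation of 0.826, below the 54.5 that counting reads alone gives on average, so this spread understates the error of that mean.

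*TGFBR1*, the type I receptor kinase that phosphorylates SMAD2 and SMAD3, peaked where *TGFBR2* did not. Its untreated values were 709, 729 and 844. It was at 1266, 1295 and 1309 at d4, 796, 775 and 791 at d10, 1203, 1234 and 1263 at d15, and 908, 855 and 1003 at d20. The d4 and d15 libraries were all above the untreated ones, and the d10 libraries fell within the untreated range. The log2 difference was 0.77 at d4 (limma, adjusted p = 2.20e-07), 0.70 at d15 (adjusted p = 6.29e-07) and 0.05 at d10 (95% interval -0.14 to 0.25, adjusted p = 0.622). Smaller differences at d1 (0.24, limma, adjusted p = 0.0306) and d20 (0.28, adjusted p = 0.0130) did not pass the threshold with libraries rescaled to the same total, at 0.047 and 0.078. From d10 to d15 *TGFBR1* rose by 0.65 (limma, adjusted p = 1.77e-06) while *TGFBR2* fell by 0.80 (adjusted p = 5.38e-13). From d15 to d20 *TGFBR1* fell by 0.42 (adjusted p = 0.000347) and *TGFBR2* rose by 0.75 (adjusted p = 3.17e-12).

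*TGFBR3* encodes betaglycan, the coreceptor that presents TGFβ2 to the type II receptor. Its values were 73.0, 73.8 and 56.4 in untreated cells (57 to 87 reads) and 17.8, 24.6 and 18.9 at d1. They were 16.9, 28.2 and 23.5 at d10, 66.3, 61.5 and 68.4 at d15, and 22.3, 16.8 and 23.5 at d20. The d15 libraries were the only treated ones that reached the untreated range, and the other 15 lay below it. *TGFBR3* fell by 1.69 on the log2 scale at d1 (limma, adjusted p = 4.89e-06) and by 1.66 at d20 (adjusted p = 5.15e-06). At d15 the difference was -0.04, with a 95% interval from -0.55 to 0.47 (limma, adjusted p = 0.885). The rise from d10 to d15 was 1.50 (limma, adjusted p = 9.70e-06), and by d20 the gene had dropped by 1.61 again (adjusted p = 4.80e-06).

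The third d7 library lay apart from the other two for the receptors. *TGFBR1* was 1266 and 1285 in the first and second d7 library and 911 in the third, *TGFBR2* was 1814, 1806 and 2095, and *TGFBR3* was 33.8, 34.4 and 16.8. Without the third library the d7 difference from untreated cells was 0.75 for *TGFBR1* (0.59 with it), 0.16 for *TGFBR2* (0.23 with it) and -0.96 for *TGFBR3* (-1.29 with it). Each kept an adjusted p under the threshold in limma's test, with the largest at 0.000361. With libraries rescaled to the same total, the *TGFBR2* difference at d7 was 0.041 and did not pass (limma, adjusted p = 0.458).

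Per kilobase, *TGFBR2* made up 73.4% of the summed receptor value at d0, 84.1% at d10 and 65.3% at d15. *TGFBR1* made up 24.5%, 15.5% and 32.9% on the same days. *TGFBR3* made up 2.19% at d0 and 0.415% at d20.

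**Figure D2:**
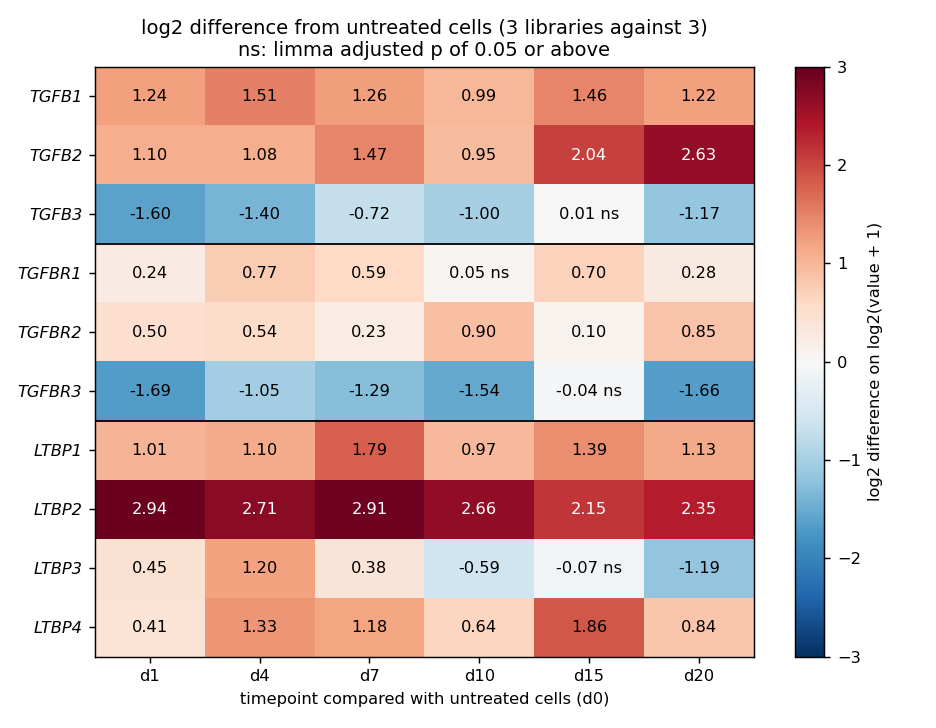
Log2 difference from untreated cells on log2(value + 1) for each gene (rows, with ligands, receptors and latency proteins divided by lines) and treated timepoint (columns), from 3 libraries against 3, in colour and as printed numbers. The 4 cells marked ns, with a limma adjusted p of 0.05 or above, are *TGFBR1* at d10 and *TGFB3*, *TGFBR3* and *LTBP3* at d15.

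Of the latency genes, *LTBP2* had the largest difference. LTBP2 is a fibrillin-binding matrix protein that, unlike the other family members, is known not to bind latent TGFβ. Its values were 660, 652 and 659 in untreated cells and 4994, 5149.5 and 5049 at d1. They were 4119, 4184 and 4191 at d10, 3038, 2929.6 and 2809 at d15, and 3394, 3369.9 and 3316 at d20. Each treated library was more than 4 times any untreated one. The log2 difference was 2.94 at d1 (standard error 0.05, limma, adjusted p = 3.49e-21), the highest of the 7 timepoints, and 2.15 at d15 (adjusted p = 4.09e-19), the lowest of the treated ones. *LTBP2* at d1 and d7 did not differ, while d20 was higher than d15 by 0.20 (limma, adjusted p = 0.00164), a difference of 0.10 that did not pass with quantile normalization (adjusted p = 0.125).

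*LTBP4*, a latency protein of elastic fibres that preferentially carries latent TGFβ1, had a different course. Its values were 1104, 1228 and 1139 at d0, 1472, 1506 and 1624 at d1, and 2679.7, 2827 and 3217 at d4. At d15 they were 4099, 4208 and 4326 and at d20 they were 2268, 1979 and 1979. The d15 libraries were the highest, with no overlap with any other timepoint. The log2 difference was 0.41 at d1 (limma, adjusted p = 3.37e-05), 1.86 at d15 (standard error 0.07, adjusted p = 5.30e-16) and 0.84 at d20 (adjusted p = 7.66e-10). Between d15 and d20 *LTBP4* fell by 1.02 (limma, adjusted p = 2.56e-11).

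*LTBP3*, which also binds the small latent complex, was the gene that changed direction. Its values were 269.7, 309.6 and 276 at d0 and rose to 631, 663 and 679 at d4. They were 194, 192 and 179 at d10 and 127, 132 and 115 at d20. The d4 libraries were all above the untreated ones, and those of d10 and d20 were all below. The log2 difference was 1.20 at d4 (limma, adjusted p = 4.93e-11), -0.59 at d10 (adjusted p = 2.99e-06) and -1.19 at d20 (adjusted p = 8.25e-11). At d15, with values of 308, 267 and 240.3, it was -0.07 (limma, adjusted p = 0.441), and rescaling to the same total gave -0.23 (adjusted p = 0.0176).

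*LTBP1*, the founding member that links the small latent complex to fibrillin and fibronectin, was the least abundant of the 4. Its untreated values were 50.7, 43.3 and 64.3, and its values were 108, 111 and 99.2 at d1 and 193, 203 and 156 at d7. At the other treated timepoints they ranged from 97.2 to 149. No treated library overlapped the untreated ones. The log2 difference was 1.01 at d1 (limma, adjusted p = 1.28e-06) and 1.79 at d7 (standard error 0.13, adjusted p = 1.55e-10), and 1.91 at d7 without the third d7 library. Below d7, the d15, d20, d4, d1 and d10 levels did not differ between neighbours in that order.

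Per kilobase, *LTBP4* led the latency genes at d0 with 60.6% of their summed value, and *LTBP2* had 20.2%, *LTBP3* 16.9% and *LTBP1* 2.20%. The lead then moved back and forth. At d1 *LTBP2* had 59.1% and *LTBP4* 30.5%, at d4 they had 40.3% and 46.4%, at d7 47.6% and 43.1%, and at d10 53.8% and 39.7%. At d15 *LTBP4* had 66.3% against 27.1%, and at d20 48.5% against 46.1%. The d20 values per kb were 451, 393.2 and 393.3 for *LTBP4* and 396, 393.4 and 387 for *LTBP2*, so the order differed between libraries. It also depends on the transcript lengths, since *LTBP2* had the higher value before division in each d20 library. The share of *LTBP3* was 3.29% at d20. Since LTBP2 is known not to bind latent TGFβ, these shares of RNA do not measure the binding of latent TGFβ.

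**Figure D3:**
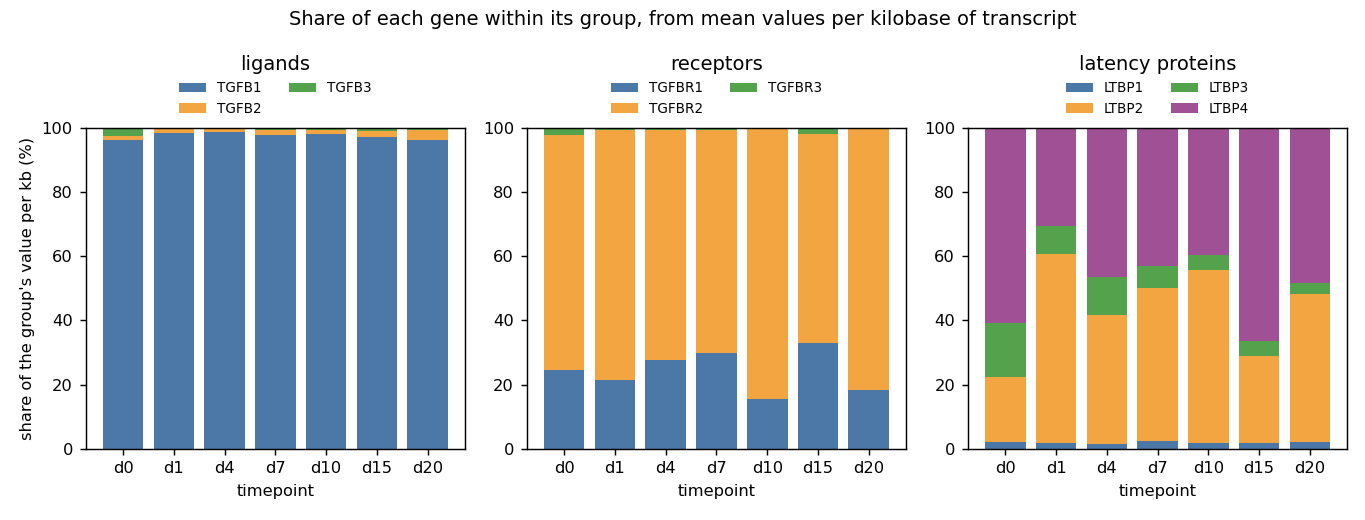
Share of each gene in the summed value per kilobase of its group (vertical axes, percent) at each timepoint (horizontal axes), from the means of 3 libraries and with no error drawn. *TGFB1* fills at least 96.2% of the ligand bar at every timepoint, *TGFBR2* fills 65.3% to 84.1% of the receptor bar, and *LTBP4* has the largest share of the latency genes at d0, d4, d15 and d20 and *LTBP2* at d1, d7 and d10. The shares of *LTBP4* and *LTBP2* at d20 are close, and their order differs between libraries. LTBP2 is known not to bind latent TGFβ.

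Successive timepoints were compared in the same fit. Of the 10 genes, 6 differed between d1 and d4, when 64.9% of all genes tested did, 5 differed between d4 and d7 (51.1%) and 8 between d7 and d10 (71.4%). All 10 differed between d10 and d15, against 79.8% of all genes, and 9 differed between d15 and d20, against 74.1%. The shares of all genes were high at these steps, so the counts are near the background. From d10 to d15, *TGFB1*, *TGFB2*, *TGFB3*, *TGFBR1*, *TGFBR3*, *LTBP1*, *LTBP3* and *LTBP4* rose and *TGFBR2* and *LTBP2* fell. With quantile normalization *TGFB3*, as given above, and *LTBP1* (0.19, limma, adjusted p = 0.207) did not pass at this step, nor *LTBP2* at the next. From d15 to d20, *TGFB2*, *TGFBR2* and *LTBP2* rose and the others fell, except *LTBP1* (-0.26, limma, adjusted p = 0.0865, and 0.0449 with libraries rescaled to the same total). Of the 60 pairs of neighbours in the order of timepoint levels, 6 for each gene, 32 did not differ.

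Ratios of the values of genes in the same library do not depend on the size factors. The log2 differences and tests below used value + 1 for each gene. For low genes they are therefore not fully free of the size factors. Over 8 such ratios, the 18 treated libraries were compared with the 3 untreated ones by a two-sided exact permutation test, for which the smallest possible p is 0.000752. The test treats the treated libraries as exchangeable, although they come from 6 days. The mean *TGFB3*/*TGFB1* ratio of values was 0.0244 in untreated and 0.00539 in treated libraries, and it was lower in 18 of 18 (log2 difference -2.26, exact permutation p = 0.000752, adjusted over 8 ratios 0.00201). The *TGFB3*/*TGFB2* ratio was 1.14 in untreated and 0.206 in treated libraries, again lower in 18 of 18 with the same p (log2 difference -2.53). *TGFB1* and *TGFB2* alone were above the untreated range in all 18 treated libraries, and *TGFB3* was below it in 16. The 2 ratios therefore largely restate the single genes and add no separate support. The share of other gene pairs whose ratio separates in this way was not computed. At d15, where the *TGFB3* value itself was at its untreated level, the *TGFB3*/*TGFB1* ratio was 0.00895 ± 0.00116 (SD, n = 3).

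The *LTBP2*/*LTBP1* ratio was 12.8 in untreated and 34.1 in treated libraries, higher in 18 of 18 (log2 difference 1.39, exact permutation p = 0.000752, adjusted 0.00201). For *TGFBR3*/*TGFBR2* the ratio was 0.0419 in untreated and 0.0150 in treated libraries and was below the untreated range in 15 of 18 (log2 difference -1.73, exact permutation p = 0.00301, adjusted 0.00602). *LTBP3*/*LTBP1* went from 5.59 to 2.75 and was below the untreated range in 15 of 18 (log2 difference -1.20, exact permutation p = 0.0226, adjusted 0.0361). The remaining ratios, *TGFB2*/*TGFB1*, *TGFBR2*/*TGFBR1* and *LTBP4*/*LTBP1*, had log2 differences of 0.27, 0.09 and -0.19, with exact permutation p of 0.516, 0.792 and 0.501. The *TGFBR2*/*TGFBR1* ratio was above the untreated range in 8 treated libraries and below it in 8. It was 2.14 ± 0.218 at d0, 3.85 ± 0.0541 at d10, 1.41 ± 0.0476 at d15 and 3.18 ± 0.261 at d20 (SD, n = 3 each). At d7 it was 1.40 to 2.30, and the third library was the highest. Of the 48 ratios by single day, none can reach a p under 0.1 in an exact test of 3 libraries against 3.

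**Figure D4:**
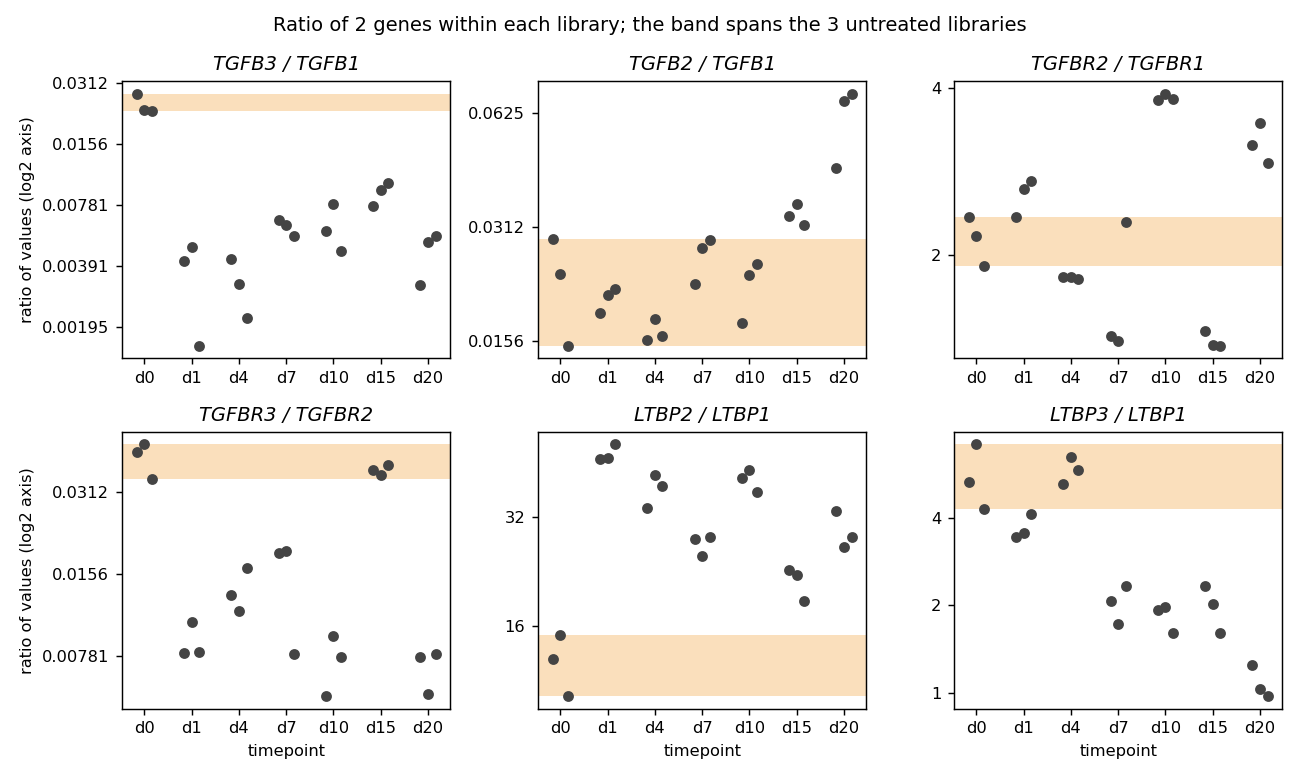
Ratio of the normalized values of 2 genes in each library (vertical axes, log2 scale) by timepoint (horizontal axes), with a band over the range of the 3 untreated libraries. All 18 treated libraries lie below the band for *TGFB3*/*TGFB1* and above it for *LTBP2*/*LTBP1*, and the *TGFBR2*/*TGFBR1* ratio lies on both sides of it.

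The genes around the ligands and receptors were described as 5 lists, by role. Of all genes tested, 32.5% were higher and 30.2% lower at d20, and over the 6 days 31.3% to 39.2% were higher and 28.5% to 37.3% lower. Of 15 genes listed around the activation of latent TGFβ, 13 were tested, and 12 were higher and 1 lower at d20, with a median log2 difference of 1.95 against 0.00 for all genes. At d1 to d15, 11 or 12 of the 13 were higher and 1 or 2 lower. *MMP9* and *MMP2*, gelatinases that can cleave latent complexes, rose from 39.8 ± 6.53 to 2805 ± 166 (log2 difference 6.11, limma, adjusted p = 1.55e-15) and from 60.4 ± 10.4 to 1920.3 ± 20.9 (log2 difference 4.98, adjusted p = 1.69e-22) at d20. *THBS1*, thrombospondin 1, an activator of latent TGFβ1, rose from 7040.4 ± 361 to 134301 ± 4557 (log2 difference 4.25, limma, adjusted p = 2.40e-21, SD over n = 3 throughout). The gene that was lower on all 6 days was *ITGB8*, a subunit of the αvβ8 integrin that activates latent TGFβ, with a log2 difference of -2.22 at d20. *ITGB6*, a subunit of the activating αvβ6 integrin, had one of 2.53.

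Of 11 genes listed as matrix partners of the LTBPs, 9 were tested, and 7 were higher and 1 lower at d20 (32.5% and 30.2% of all genes), with a median of 4.40. Their median was 1.71 at d1 and 2.53 at d10. *FBLN5*, fibulin 5 of elastic fibres, rose from 5.44 ± 1.50 to 1106 ± 50.6 (log2 difference 7.45, limma, adjusted p = 1.30e-21), with at most 8 reads in an untreated library. *FN1*, fibronectin, rose from 4243 ± 182 to 539309 ± 7073 (log2 difference 6.99, limma, adjusted p = 1.08e-26). *TGM2*, a transglutaminase that crosslinks matrix proteins, rose from 231 ± 14.9 to 11203 ± 393 (log2 difference 5.59, limma, adjusted p = 4.86e-22). *EMILIN1*, which limits the processing of the TGFβ precursor, was the gene that was lower, with a log2 difference of -1.11 at d20.

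Of 16 coreceptors and modulators of the receptors, 13 were tested, and 8 were higher and 1 lower at d20 (32.5% and 30.2% of all genes), with a median of 0.84. On the other days 9 or 10 were higher and 2 to 4 lower, when 31.3% to 39.2% and 28.5% to 37.3% of all genes were. *PMEPA1* and *SMAD7*, both feedback inhibitors of the pathway, rose from 348 ± 24.5 to 11984 ± 217 (log2 difference 5.10, limma, adjusted p = 1.11e-22) and from 108 ± 9.23 to 529.6 ± 11.8 (log2 difference 2.29, adjusted p = 1.54e-17). *BGN*, a small proteoglycan that binds TGFβ, was at 65.8 ± 12.5 in untreated cells and 254 ± 18.5 at d20 (log2 difference 1.95, limma, adjusted p = 2.00e-08), but was lower at d1 (-1.39), d4 (-0.88) and d10 (-0.65). *FKBP1A*, which binds the type I receptor and keeps it inactive, was higher on all days but d15 (-0.25).

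The core of the SMAD machinery had the smallest median of the 5 lists on each day. Of 7 genes, all tested, 5 were higher and none lower at d1, 7 and none at d4, 4 and none at d7, 2 and none at d10, 6 and 1 at d15, and 4 and 1 at d20, with medians between 0.04 and 0.42. The 2 of 7 at d10 stand against 37.0% of all genes higher and the 4 of 7 at d20 against 32.5%. *SKIL*, a corepressor that is itself a target of the pathway, rose from 259 ± 27.8 to 721 ± 35.3 at d20 (log2 difference 1.48, limma, adjusted p = 9.51e-15). *SKI* and *TGIF1*, also corepressors, had log2 differences of 0.56 (limma, adjusted p = 9.43e-11) and 0.39 (adjusted p = 0.00251). *SMAD3* was the gene that was lower at d15 (-0.39) and *SMAD2* the one at d20 (-0.13). Rescaling to the same total moved the median of all genes at d20 downward, to -0.20. The size of the *SMAD2* difference therefore depends on the scaling.

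Of 15 known direct targets, 14 were tested, and 13 or 14 were higher on each of the 6 days (31.3% to 39.2% of all genes), with medians between 2.41 and 2.89. At d20 *COL1A1*, a fibrillar collagen chain, rose from 462 ± 15.6 to 28233 ± 1193 (log2 difference 5.93, limma, adjusted p = 7.30e-25). *PMEPA1* is given above. *CDKN2B*, a cell-cycle inhibitor, was lower at d10 (-0.88) and higher at d4, d7 and d15.

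**Figure D5:**
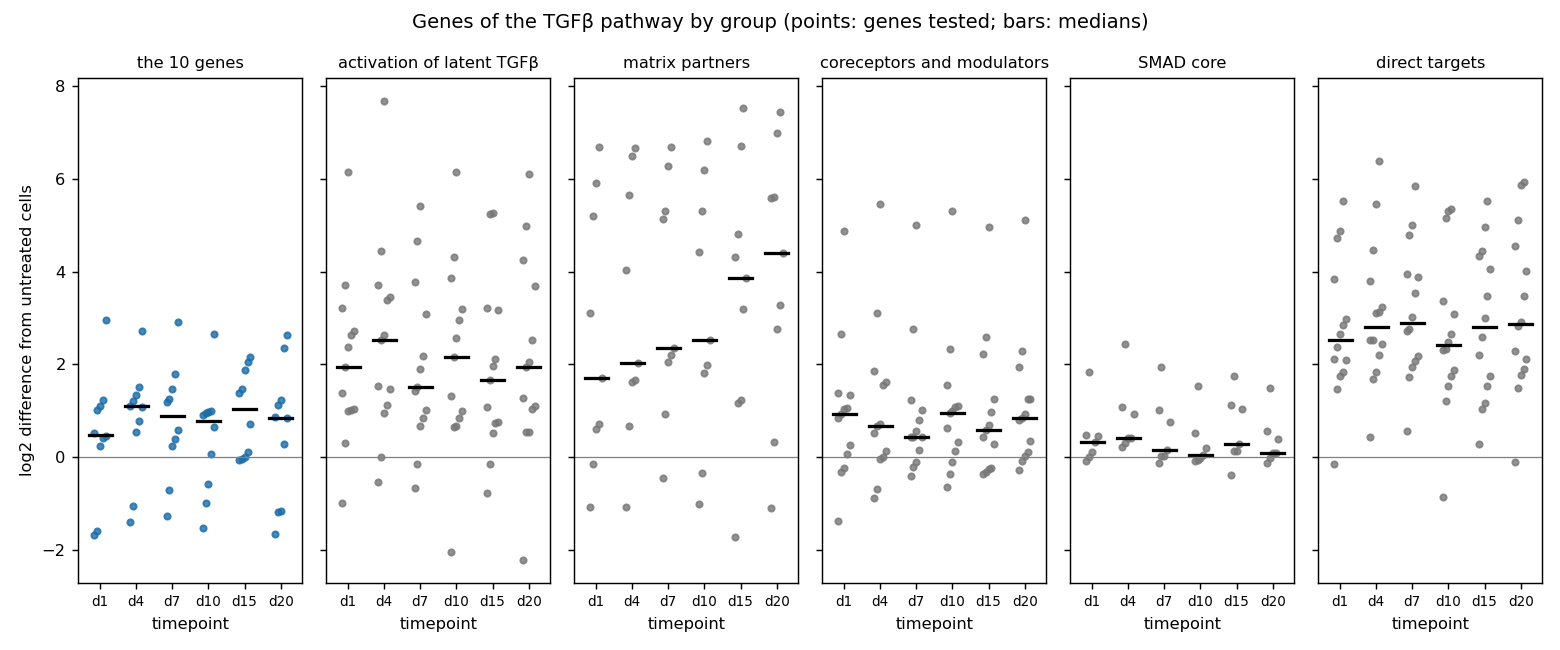
Log2 difference from untreated cells (vertical axis) at each treated timepoint (horizontal axes) for the 10 genes and the tested genes of 5 pathway lists, with 1 point per gene and a bar at the median. The median of the matrix partners goes from 1.71 at d1 to 4.40 at d20, and that of the SMAD core stays between 0.04 and 0.42.

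Finally, the course of each gene over the 7 timepoint means was set beside that of 3894 other genes with a range of at least 1 on the log2 scale and a mean of at least 50. Pearson's r is given as a description over 7 points whose values come from the same libraries and size factors. The courses closest to *TGFB1* were those of *PINK1*, a mitochondrial kinase, and *HERC3* (r = 0.993 and 0.991), and 256 genes had an r over 0.9 with it. Closest to *TGFB2* were *NEXN*, an actin-binding protein, and *COL1A1* (0.979 and 0.974), with 36 genes over 0.9. *TGFB3* had only 5 genes over 0.9, with *KAT2B*, an acetyltransferase, and *LDLRAD3* closest (0.937 and 0.936). *TGFBR3* had 22, with *FAM201A* and *DHRS13* closest (0.977 and 0.976). *TGFBR1* and *TGFBR2* had a range below 1 and were not compared.

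*LTBP2* was closest to *TGM2* and *TNS4*, a focal adhesion protein (0.996 and 0.985), and *LTBP4* to *MEF2D*, a transcription factor, and *GPSM1* (0.992 and 0.990). *LTBP1* was closest to *TCF4*, an E-box-binding transcription factor, and *CYYR1* (0.983 and 0.973). *LTBP3* was closest to *DHRS3*, a retinal reductase, and *PNLIPRP3* (0.971 and 0.962). The number of genes with an r over 0.9 was 168 for *LTBP2*, 257 for *LTBP4*, 89 for *LTBP1* and 16 for *LTBP3*. Among the 10 genes themselves, r was 0.90 for *TGFBR1* and *LTBP4*, 0.88 for *TGFB3* and *TGFBR3* and for *TGFB1* and *LTBP2*, and -0.82 for *TGFBR2* and *TGFBR3*. With the average of 8 cell-cycle genes on the log2 scale, which was lowest at d15, r was -0.88 for *LTBP4*, -0.78 for *TGFBR1* and 0.39 for *TGFBR2* over the same 7 means. For *TGFB1*, *TGFB2*, *TGFB3* and *TGFBR3* it was -0.58, -0.38, -0.35 and -0.48. For *LTBP1*, *LTBP2* and *LTBP3* it was -0.48, -0.21 and -0.29. The share of all genes with such an r was not computed.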

How the data were processed

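HMLE cells were analysed at 7 timepoints with 3 libraries each. The authors deposited a normalized signal per gene symbol and library, and every value was a whole count of reads divided by 1 size factor per library (tolerance 0.0051, 100% of values). The submitters' processing notes name hg19, STAR 2.7 and Salmon 1.4, with no role, so symbols were used and no coordinates were taken from the files. All 21 columns were used. They name a timepoint and carry no replicate numbers. Genes with a mean of at least 10 entered limma 3.58.1 (R 4.3.3, trend, all timepoints in 1 fit) as log2(value + 1) and Benjamini-Hochberg adjustment within each contrast at 0.05. Fold changes are on that scale, which understates changes of low genes. Alternatives were a pseudocount of 10, no filter (19546 genes), quantile normalization, rescaling to the same total, a fit of only the 2 timepoints compared, a minimum change of 2-fold, edgeR 4.0.16 and DESeq2 1.42.0 on the recovered reads, and each library left out. The limma, edgeR and DESeq2 fits were tested on simulated reads, for d20 against d0 only. Read totals per library set the precision. A marker or list gene at or below 3 reads was taken as at the floor, and no test used this limit.

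Genes named besides the 10 are the 3 of each pathway list with the largest difference at d20 past the threshold with a mean of at least 50 at d0 or d20, and the 2 with the highest r to each of the 10. A gene that this rule names is not reported here. *ITGB8*, *ITGB6*, *EMILIN1*, *FKBP1A*, *SMAD2*, *SMAD3*, *CDKN2B* and the marker genes were named after their values were seen. The 10 genes and the lists were chosen with earlier results of these data known. Promoter windows are from RefSeq (GRCh38.p14) and transcript lengths from GENCODE v29. Python 3.11.15 with matplotlib 3.10.9 drew the figures.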

Additional observations from a re-analysis of the deposited data

How the results depend on the processing

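No paired analysis was possible because no column shows its replicate number. Of 770 alternative values of the 110 gene differences outside leaving out libraries, 740 kept direction and side of the threshold, 17 no longer passed, 4 newly passed and 9 changed sign, and the cause was not tested. With rescaling to the same total, *TGFBR1* at d10 became -0.17, *TGFB3* at d15 -0.15 and *TGFBR2* at d15 -0.059, and the number of the 10 genes lower at d15 went from none to 1. With quantile normalization *TGFBR1* at d10 became -0.044, *TGFB3* at d15 -0.19, *LTBP1* between d1 and d4 -0.0080, and *TGFB3* and *TGFBR3* between d7 and d10 0.14 and 0.17. In edgeR's test *TGFB3* at d15 became -0.016. Without the filter 1 gene was lower at d7. With a minimum 2-fold change 4 genes were higher at d1, 5 at d7, 1 at d10 and 4 at d20, and 1 was lower at d7 and at d10. Leaving out each of the 21 libraries gave 1 to 2 genes lower at d7, where *TGFB3* is near the threshold, and a *LTBP3*/*LTBP1* log2 difference from -1.37 to -1.01, which did not pass without the first or second untreated library. Signs turned in these ranges: *TGFB3* at d15 from -0.068 to 0.079, *TGFBR3* at d15 from -0.17 to 0.026, *LTBP3* at d15 from -0.17 to 0.011, *TGFB2* and *TGFB3* between d1 and d4 from -0.074 to 0.053 and from -0.23 to 0.46, and *TGFBR3* between d4 and d7 from -0.41 to 0.091, the last turning without the third d7 library. The *TGFBR2* difference at d15 was lost without 16 of the libraries in turn and that of *TGFBR1* at d1 without 4 and at d20 without 2. Changes of sign were 22 of 3080, and each was in a comparison whose main adjusted p was above the threshold or, for *TGFBR2* at d15, 0.0464. Depth limits *TGFB3* and *TGFBR3* most, at 5 to 39 and 16 to 87 reads.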
